A study of Mus musculus with 3 samples.

Results

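The 8 genes described here encode immune checkpoint ligands, surface or secreted proteins by which an epithelial cell signals to T cells, NK cells and phagocytes. They are Cd274, Tnfrsf14, Lgals9, Cd47, Ceacam1, Pvr, Nectin2 and H2-T23, taken by symbol from the 32285 genes of the count matrices, and all 8 were found. They were measured by droplet sc-RNAseq in mouse colon organoids, which are epithelial cultures grown from stem cells of the colon without immune or stromal cells. There were 3 libraries, 1 of untreated organoids, 1 of organoids treated with IFN-γ for 24 h and 1 of organoids treated for 48 h. All 3 came from organoids in full medium, which keeps them rich in stem and progenitor cells, and from epithelial cells sorted for viability. The labels give no strain or age for the animals. With 1 library per condition, treatment and library preparation cannot be told apart, and the values below are measurements of these libraries with no test across samples.

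Checkpoint ligands hold back or redirect immune cells that meet the epithelium. CD274 (PD-L1) engages PD-1 on T cells and restrains them. TNFRSF14 (HVEM) binds BTLA and CD160, and also the TNF family cytokine LIGHT. Galectin-9, the product of Lgals9, is a secreted lectin that binds TIM-3 among other glycoproteins. CD47 binds SIRPα on macrophages and inhibits phagocytosis. CEACAM1 is an adhesion molecule that binds itself on neighbouring cells. PVR (CD155) and NECTIN2 (CD112) are adhesion proteins recognised by the inhibitory receptor TIGIT and the activating receptor CD226. H2-T23 encodes Qa-1, a nonclassical MHC class I molecule that presents a leader peptide of other class I molecules to CD94/NKG2A on NK cells and CD8+ T cells. IFN-γ, a cytokine of T cells and NK cells, acts through the kinases JAK1 and JAK2, and its target genes often carry GAS elements or ISRE elements, the latter bound by IRF factors. Cd274 is a well known IFN-γ target.

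The start regions of these genes are shown because the comparison is one of interferon treatment. Windows from 250 bases before to 50 bases after the annotated start were taken from RefSeq (GRCm38.p6), and 7 of the 8 genes had one. Pvr had no entry. Both strands were searched for the GAS letters TTCNNNGAA and the ISRE letters, GAAA followed by any 2 bases and GAAA again, which read TTTC, any 2 bases and TTTC on the other strand. The letters of the motifs do not overlap in these windows. The 3 windows that hold ISRE letters and that of Cd274 follow, 5′ to 3′ on the strand of the gene, with matches in capitals.
Lgals9, chr11:78984875-78985174, minus strand: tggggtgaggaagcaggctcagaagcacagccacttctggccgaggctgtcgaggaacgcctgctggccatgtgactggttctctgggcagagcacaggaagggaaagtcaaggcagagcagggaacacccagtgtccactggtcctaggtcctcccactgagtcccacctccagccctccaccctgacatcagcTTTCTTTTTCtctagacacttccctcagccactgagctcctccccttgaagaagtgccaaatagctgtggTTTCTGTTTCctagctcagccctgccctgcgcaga
Tnfrsf14, chr4:154928028-154928327, minus strand: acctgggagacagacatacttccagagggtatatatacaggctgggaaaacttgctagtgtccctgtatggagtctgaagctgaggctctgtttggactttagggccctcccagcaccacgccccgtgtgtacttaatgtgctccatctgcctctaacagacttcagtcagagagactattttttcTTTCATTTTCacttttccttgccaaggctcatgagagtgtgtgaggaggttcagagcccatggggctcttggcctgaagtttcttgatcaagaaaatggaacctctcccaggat
H2-T23, chr17:36032652-36032951, minus strand: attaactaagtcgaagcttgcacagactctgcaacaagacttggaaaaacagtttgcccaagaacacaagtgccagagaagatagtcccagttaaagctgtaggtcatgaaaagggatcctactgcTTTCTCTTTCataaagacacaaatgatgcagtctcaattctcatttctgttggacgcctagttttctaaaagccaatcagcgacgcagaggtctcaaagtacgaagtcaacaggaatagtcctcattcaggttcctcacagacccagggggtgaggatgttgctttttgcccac
Cd274, chr19:29367188-29367487, plus strand: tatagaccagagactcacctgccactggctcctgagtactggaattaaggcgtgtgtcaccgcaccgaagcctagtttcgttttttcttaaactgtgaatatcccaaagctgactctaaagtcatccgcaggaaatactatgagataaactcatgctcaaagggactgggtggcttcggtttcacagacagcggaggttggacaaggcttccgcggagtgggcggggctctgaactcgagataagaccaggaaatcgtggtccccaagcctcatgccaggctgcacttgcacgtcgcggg
The Lgals9 window held the ISRE letters at 2 places, starting at base -55 and at base 15 relative to the annotated start. Tnfrsf14 held them once, at base -64, and H2-T23 once, at base -124. The windows of Cd274, Cd47, Ceacam1 and Nectin2 held neither set of letters, and no member window held the GAS letters. Among all 32851 promoter windows of the same length, 1131 (3.44%) held the ISRE letters and 2726 (8.30%) the GAS letters. A match describes the letters in this window and is not a measured binding site.

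The filter left 1058 cells in the untreated library, 917 in the 24 h library and 2934 in the 48 h library, with 47243500 to 71077817 UMIs (counted transcript molecules) per library. Median depth was 33550 UMIs per cell without IFN-γ, 68784 after 24 h and 10772 after 48 h, so shares of cells were taken at equal depth, with every cell thinned by random draws to 5000 UMIs. The label of epithelial cells held against its markers. All 8 epithelial markers were detected in each library, at a summed 6181 to 8798 CPM (the UMIs of a gene scaled to a common library total). The 14 immune markers summed to 9.90 CPM without IFN-γ, 1.24 CPM after 24 h and 1.61 CPM after 48 h, of which Kit alone made up 9.40, 0.999 and 1.27 CPM. Ptprc, Cd3g, Cd8a and Ncr1 had 0 UMIs throughout. The 10 stromal and endothelial markers summed to 0.886 to 2.51 CPM, with Col1a1, Col3a1, Lum and Kdr at 0 UMIs. Libraries shared between 1 and 4 cell barcodes pair by pair.

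After 24 h and 48 h of IFN-γ, Cd274, Lgals9, H2-T23 and Tnfrsf14 were each more than 2-fold above the untreated library, Cd47 was higher by a smaller factor and Ceacam1 was lower. Pvr and Nectin2 lay within 2-fold of untreated at both times. All 8 members passed the minimum of 10 UMIs over the libraries compared. At 24 h, 4 of 8 were at least 2-fold higher and 0 were at least 2-fold lower, where 3.46% of the 17412 genes with enough UMIs were that much higher and 26.0% that much lower. At 48 h the count was again 4 higher and 0 lower, beside 5.26% higher and 16.6% lower among 17376 genes. The median log2 ratio of the members was 0.93 at 24 h and 0.97 at 48 h, while that of all genes with enough UMIs was -0.46 and -0.18. The members were chosen with earlier results of these data known, so these counts and medians are no independent evidence about the set. Scaling by TMM factors brought the medians of all genes to -0.01 and 0.01 and raised each member's ratio by the same shift. It also moved the background at 24 h to 7.03% higher and 16.7% lower, and at 48 h to 6.66% and 13.4%. The treated libraries share the untreated control. Intervals on ratios, levels and shares are exact 95% intervals and cover counting error only.

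**Figure D1:**
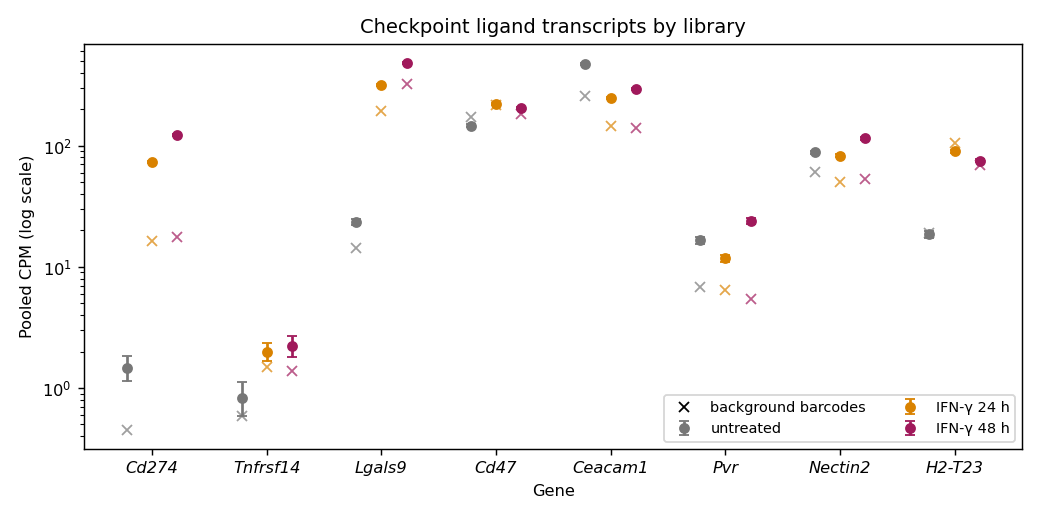
Pooled level of each of the 8 ligand genes in the untreated, 24 h and 48 h libraries, in CPM on a log axis, with exact 95% Poisson intervals as bars and the level in background barcodes as crosses. Cd274 is at 1.47, 73.4 and 122 CPM and Lgals9 at 23.5, 317 and 481 CPM, while Ceacam1 is lower in both treated libraries.

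Cd274 (ENSMUSG00000016496, chromosome 19, 29367455 to 29388095, plus strand, GRCm38) was nearly silent without IFN-γ. Its pooled level was 1.47 CPM in untreated cells (1.15 to 1.84, 73 UMIs), 73.4 CPM after 24 h (71.4 to 75.4, 5214 UMIs) and 122 CPM after 48 h (119 to 125, 5776 UMIs). Both treated libraries thus lay far above the untreated one and their intervals did not overlap it. The log2 ratio was 5.65 at 24 h (5.31 to 6.0, about 50-fold) and 6.38 at 48 h (6.05 to 6.74, 83.4-fold). At both times Cd274 had the 80th highest ratio among the genes with enough UMIs. Barcodes with fewer than 2000 UMIs were taken as background, a stand-in for free RNA, and what they hold was not tested. They had Cd274 at 0.447, 16.5 and 17.6 CPM, several-fold below the cells. At 5000 UMIs per cell, a Cd274 UMI was found in 1.42% of cells without IFN-γ (0.796 to 2.33%), 29.1% after 24 h (26.2 to 32.2%) and 38.7% after 48 h (36.9 to 40.4%). Without thinning the shares were 4.82%, 79.1% and 62.5%, in a different order, and the 24 h cells were deeper. Thinned shares were also read by UMIs per cell before thinning, in ranges of 5000 to 10000, to 20000, to 40000 and above. They were 41.1%, 34.4%, 46.2% and 23.5% at 24 h, and 42.3%, 37.7%, 34.0% and 31.6% at 48 h.

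Lgals9 (chromosome 11, 78962974 to 78984946, minus strand) was already detectable without IFN-γ and reached a high level with it. It was at 23.5 CPM in untreated cells (22.2 to 24.9), 317 CPM after 24 h (313 to 321) and 481 CPM after 48 h (475 to 487). The log2 ratios were 3.75 (3.67 to 3.84, 13.5-fold) and 4.35 (4.27 to 4.44, 20.4-fold). The share of cells with a UMI at equal depth was 8.88% (7.24 to 10.8%), 68.6% (65.5 to 71.6%) and 83.6% (82.2 to 84.9%). The unthinned shares were 38.5%, 95% and 93%. Background barcodes moved with the cells, with 14.2 CPM untreated, then 192 and 324 CPM. Lgals9 levels in cells were above those of the background in all 3 libraries, and the part of free RNA in the share of cells with a UMI was not tested.

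H2-T23 (chromosome 17, 36029773 to 36032855, minus strand) was higher in both treated libraries, with its highest value at 24 h. Its level was 18.5 CPM (17.3 to 19.7) untreated, 89.9 CPM (87.7 to 92.2) at 24 h and 75.4 CPM (73.0 to 78.0) at 48 h. The log2 ratios were 2.28 (2.18 to 2.38, 4.86-fold) and 2.03 (1.92 to 2.13, 4.07-fold). A UMI was found in 10.2% of cells thinned to 5000 UMIs (8.45 to 12.2%), then in 38.7% (35.5 to 42.0%) and 34.8% (33.0 to 36.5%). Before thinning these shares were 42.8%, 92.0% and 62.7%. H2-T23 stood at 19.2, 105 and 68.9 CPM in background barcodes, about the level of the cells in each library, and the part of free RNA in its counts per cell was not tested. Class I genes of this family are close in sequence, and reads that match several of them may be lost or misplaced in the counts.

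Tnfrsf14 (chromosome 4, 154921933 to 154928563, minus strand) was scarce throughout. UMIs numbered 41, 141 and 104 in the untreated, 24 h and 48 h libraries, or 0.823 CPM (0.591 to 1.12), 1.98 CPM (1.67 to 2.34) and 2.20 CPM (1.80 to 2.67). The treated intervals lay above the untreated one and overlapped each other. Log2 ratios were 1.27 (0.76 to 1.81) and 1.42 (0.88 to 1.98). At 5000 UMIs, only 0.662%, 1.20% and 1.19% of cells had a UMI, and a difference between these shares was not detectable at this depth. Background barcodes were at 0.584, 1.5 and 1.37 CPM.

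Cd47 (chromosome 16, 49800533 to 49915010, plus strand) was abundant before treatment and moderately higher after it. Levels were 147 CPM (143 to 150), 222 CPM (219 to 226) and 203 CPM (199 to 208), giving log2 ratios of 0.60 (0.56 to 0.64, 1.51-fold) and 0.47 (0.43 to 0.52). The share of cells with a UMI at equal depth was 46.0% (43.0 to 49.1%), 64.9% (61.7 to 68.0%) and 63.1% (61.3 to 64.8%). The corresponding unthinned shares were 87.0%, 96.3% and 85.2%. Under TMM scaling the 24 h ratio reached 1.04, which takes Cd47 past 2-fold at that time. In background barcodes Cd47 was at 173, 218 and 182 CPM, above the cells without IFN-γ and just below them with it.

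Ceacam1 (chromosome 7, 25461707 to 25477603, minus strand) was the one member that was lower in both treated libraries. It was at 472 CPM (466 to 478) untreated, 248 CPM (245 to 252) at 24 h and 292 CPM (287 to 297) at 48 h. The log2 ratios of -0.93 (-0.95 to -0.90) and -0.69 (-0.72 to -0.66) did not reach 2-fold, and under TMM scaling they were -0.48 and -0.51. At equal depth 86.6% of cells in the untreated library (84.4 to 88.6%), 67.4% after 24 h (64.3 to 70.4%) and 72.8% after 48 h (71.2 to 74.4%) had a UMI. Without thinning 98.6%, 98.0% and 89.8% of cells did. Ceacam2, a close paralog with which reads may be shared, had 37, 10 and 16 UMIs. Background barcodes were at 255, 146 and 139 CPM, below the cells and in the same direction.

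Pvr and Nectin2, which lie near each other on chromosome 7 (19903578 to 19921160 and 19716644 to 19750483, both minus strand), moved little. Pvr was at 16.6 CPM (15.5 to 17.8), 11.7 CPM (11.0 to 12.6) and 23.9 CPM (22.5 to 25.3), lowest at 24 h and highest at 48 h. Its log2 ratio to untreated was -0.50 at 24 h (-0.64 to -0.36) and 0.53 at 48 h (0.39 to 0.66). Nectin2 was at 88.0 CPM (85.4 to 90.7), 82.6 CPM (80.5 to 84.8) and 115 CPM (112 to 118), with log2 ratios of -0.09 (-0.15 to -0.03) and 0.39 (0.33 to 0.45). Both genes were highest in the 48 h library when all cells were pooled. The same held in cells of 40000 or more UMIs. There Pvr was at 14.5, 10.7 and 23.2 CPM and Nectin2 at 77.6, 78.7 and 103 CPM. In cells of 5000 to 10000 UMIs both genes were highest at 24 h. In cells of 10000 to 40000 UMIs the 48 h ratio to untreated was -0.25 for Pvr and -0.33 for Nectin2. TMM scaling took Pvr at 24 h to -0.05 and turned Nectin2 at 24 h to 0.36. At equal depth the shares for Pvr were 7.56% (6.04 to 9.32%), 7.52% (5.90 to 9.43%) and 11.0% (9.87 to 12.2%). Those for Nectin2 were 36.2% (33.3 to 39.2%), 36.0% (32.9 to 39.2%) and 45% (43.2 to 46.8%). Untreated and 24 h shares were therefore alike within counting error for both genes. Unthinned, Pvr was found in 41.3%, 46.2% and 28.4% of cells and Nectin2 in 84.1%, 90.5% and 73.3%. Background barcodes held Pvr at 5.44 to 6.77 CPM and Nectin2 at 50 to 60.3 CPM.

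Between the treated libraries, 1 of 8 members was at least 2-fold higher at 48 h than at 24 h, beside 11.6% of 16814 genes, and 0 were 2-fold lower, beside 2.31%. That member was Pvr, with a log2 ratio of 1.02 (0.89 to 1.15). Cd274 was at 0.74 (0.68 to 0.79), Lgals9 at 0.60 (0.57 to 0.63), Nectin2 at 0.48 (0.43 to 0.53) and Ceacam1 at 0.23 (0.20 to 0.27). Tnfrsf14 at 0.15 (-0.23 to 0.53) could not be separated from 0. Lower at 48 h were H2-T23 at -0.25 (-0.31 to -0.19) and Cd47 at -0.13 (-0.16 to -0.09). The median over all genes was 0.26, so only part of these ratios stood above the general shift.

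The depth of the cells bears on this comparison, since 1379 of the 2934 cells at 48 h but only 95 of the 917 cells at 24 h held fewer than 10000 UMIs. Cd274 at 24 h was at 156 CPM in cells with 5000 to 10000 UMIs, 138 CPM in those with 10000 to 20000, 161 CPM in those with 20000 to 40000 and 67.2 CPM in the 600 cells with 40000 or more. At 48 h the same depth ranges gave 155, 130, 107 and 112 CPM. Cd274 was therefore no higher at 48 h than at 24 h in any of the 3 ranges below 40000 UMIs, and was higher in the deepest range. Pvr was lower at 48 h in the shallowest range and higher in the deepest, with 39.4, 24.9, 21.4 and 10.7 CPM at 24 h and 28.8, 26.4, 20.3 and 23.2 CPM at 48 h. In cells with 10000 to 40000 UMIs the log2 ratio of 48 h to 24 h was -0.40 for Cd274 and -0.03 for Pvr, beside a median of -0.38 over all genes. The untreated library had few Cd274 UMIs at any depth, from 1.02 CPM in the deepest to 4.4 CPM in the range from 10000 to 20000. Against untreated cells of 10000 to 40000 UMIs, Cd274 remained at log2 5.4 and 5.0, Lgals9 at 3.81 and 4.33 and H2-T23 at 2.40 and 1.40. In the same cells Ceacam1 was at -0.60 at 24 h and -1.07 at 48 h, Pvr at -0.23 and -0.25, and Nectin2 at -0.07 and -0.33. The median over all genes in these cells was -0.14 at 24 h and -0.63 at 48 h.

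**Figure D2:**
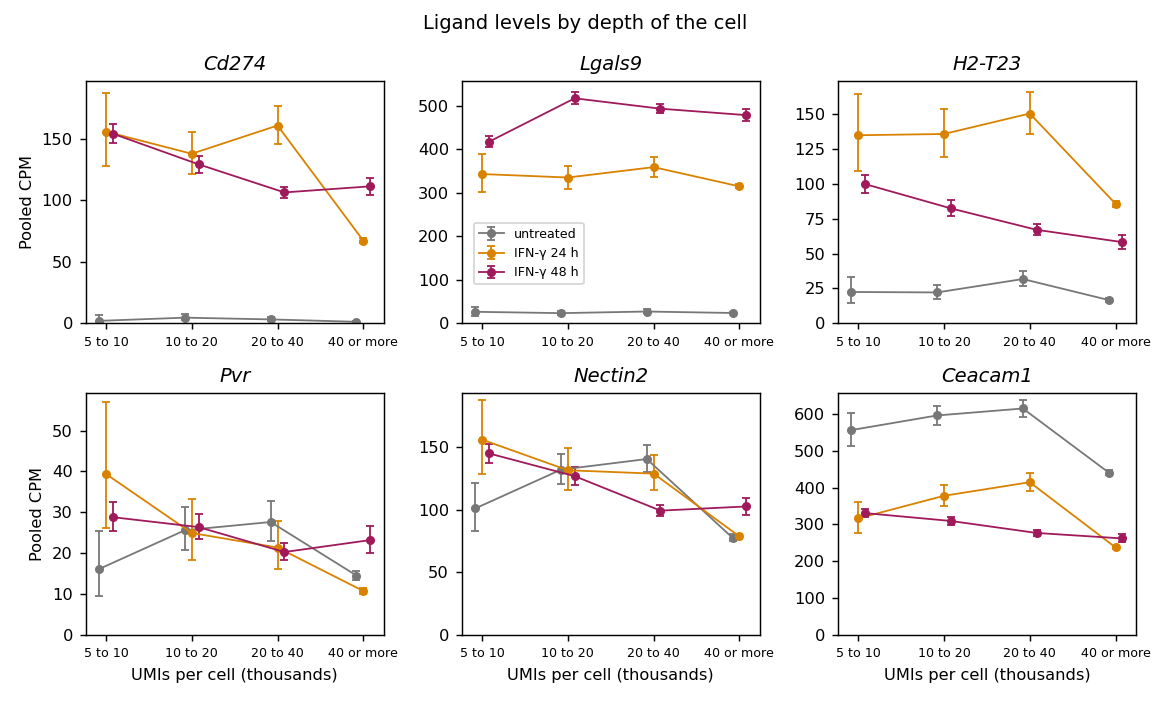
Pooled level of 6 ligand genes in cells of 4 ranges of UMIs per cell, in CPM, for the untreated, 24 h and 48 h libraries, with exact 95% Poisson intervals. At 24 h Cd274 is at 138 to 161 CPM in the 3 lower ranges and at 67.2 CPM in the deepest, while Lgals9 stays between 315 and 359 CPM.

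Spread over cells differed between the ligands and with their level. Before thinning, the 10% of cells richest in Cd274 held 43.3% of its UMIs at 24 h and 42.8% at 48 h. The depth of the cells enters these values. For Lgals9 these values were 36.5% and 34.8%, and for Cd47 31.7% and 32.8%. Ceacam1, Nectin2 and H2-T23 lay between 31.4% and 35.2% in these libraries. Scarcer genes were held by fewer cells, also before thinning. The values were 47.4% to 52.1% for Pvr over the 3 libraries, 77.3% or more for Tnfrsf14, and 62.3% for Lgals9 without IFN-γ. In thinned cells, an even fall of UMIs on all cells would show Cd274 in 36.2% of cells at 24 h and 48.0% at 48 h. The shares measured were 29.1% and 38.7%. Cd47 was nearer to an even spread, with 66.9% and 64.4% against 64.9% and 63.1%. H2-T23 was near it as well, with 40.8% and 35.5% against 38.7% and 34.8%. For Lgals9 the values were 81.5% and 90.1% against 68.6% and 83.6%, and for Ceacam1 76.1% and 78.8% against 67.4% and 72.8%. Cd274, Lgals9 and Ceacam1 were thus less even over cells than Cd47 and H2-T23 by this measure, which was not tested. The share held by the richest 10% of cells was alike for Ceacam1 (31.4% and 34.4%) and H2-T23 (31.4% and 35.2%). Background barcodes held Cd47 at 0.983 and 0.894 of the level of the cells at 24 h and 48 h. For H2-T23 this was 1.17 and 0.913, and for Lgals9 0.606 and 0.674. The parts of depth and of free RNA in the measure were not tested either.

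**Figure D3:**
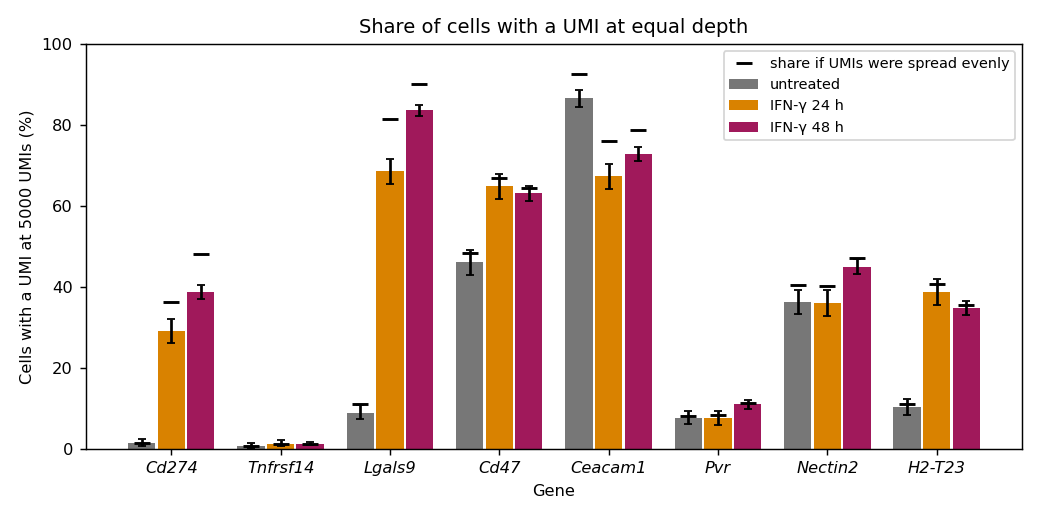
Share of cells with at least 1 UMI of each ligand gene after thinning every cell to 5000 UMIs, in percent, with exact 95% Clopper-Pearson intervals, for the 3 libraries. Dashes mark the share if UMIs were spread evenly over cells. The Cd274 share is 1.42% untreated, 29.1% at 24 h and 38.7% at 48 h, and the Ceacam1 share is 86.6%, 67.4% and 72.8%.

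Cells were then set apart by 7 lists of marker genes, for S phase, G2/M, stem, goblet, enteroendocrine and colonocyte cells and for a set of Edn1, Il1rn, F3 and Stox2. A cell was called high in a list when its UMIs for that list, after thinning, reached a level that at most 10% of the cells of its library reach, or at most 3% for the goblet and enteroendocrine lists. Cells high in several lists were left out of these groups, and cells high in none formed a further group of 580, 534 and 1716 cells. These groups are ranges of a score and not cell types. The weakest cut was that of the enteroendocrine list at 48 h, where 1 UMI sufficed and 63 cells lay at the cut. For the Edn1 set 23, 41 and 147 cells lay at the cut, and for the stem list 10, 22 and 76.

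The higher level of Cd274, Lgals9 and H2-T23 under IFN-γ was seen in each of the 8 groups. Background barcodes were higher too, with Lgals9 at 14.2, 192 and 324 CPM and H2-T23 at 19.2, 105 and 68.9 CPM. Cd274 was at 0.447, 16.5 and 17.6 CPM there. The part of free RNA in the ratios of the groups was not tested. At 24 h Cd274 ratios ran from log2 1.84 in cells high in the enteroendocrine list to 6.42 in cells high in none, and at 48 h from 2.58 to 7.24. Lgals9 ran from 1.92 in goblet-list cells to 4.11 in G2/M cells at 24 h, and from 2.80 to 4.82 at 48 h. H2-T23 ran from 1.04 in colonocyte-list cells to 4.73 (3.58 to 6.20) in enteroendocrine-list cells at 24 h, and from 0.73 to 3.19 at 48 h. The enteroendocrine-list ratios rested on 6 untreated H2-T23 UMIs, 4 of them in 1 cell. Cycling and stem-list cells were included. At 24 h Cd274 was at 4.88 (3.94 to 6.02) in S phase cells, 5.60 (4.36 to 7.23) in G2/M cells and 5.83 (4.46 to 7.72) in stem-list cells. These untreated groups held 9, 5 and 4 Cd274 UMIs, and the intervals overlapped. Tnfrsf14 had too few UMIs in most groups to be read.

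Cd47 was also higher in all 8 groups at both times, by log2 0.40 to 1.89 at 24 h and 0.28 to 1.37 at 48 h. Background barcodes held Cd47 at 173, 218 and 182 CPM, and the part of free RNA in its ratios was not tested. Ceacam1 was lower in 8 of 8 groups at 24 h, from -1.34 in stem-list cells to -0.38 in colonocyte-list cells. At 48 h it was lower in 7 of 8, and at 0.03 (-0.31 to 0.37) in enteroendocrine-list cells. Pvr was lower in 6 of 8 groups at 24 h and higher in 7 of 8 at 48 h. Nectin2 was split 4 to 4 at 24 h and was higher in 8 of 8 at 48 h, by 0.09 to 0.76. In cells of 10000 to 40000 UMIs, the 48 h ratios of Pvr and Nectin2 over all groups together were -0.25 and -0.33. In shallower and in deeper cells both genes were above untreated at 48 h. All groups of a library share its preparation.

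**Figure D4:**
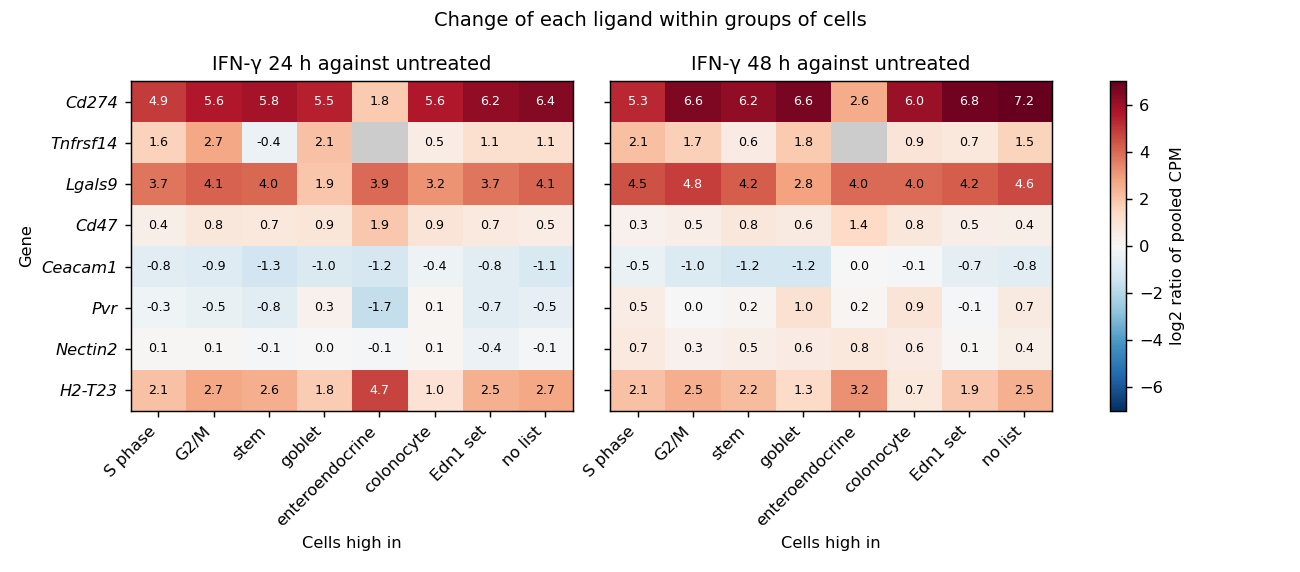
Log2 ratio of each ligand gene to the untreated library inside each of the 8 groups of cells, at 24 h and 48 h, as colour and number, with grey where the untreated group had no UMI. Cd274, Lgals9 and H2-T23 are above 0 in all groups at both times, and Ceacam1 is below 0 in all 8 groups at 24 h and in 7 of 8 at 48 h.

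Differences between groups of cells within a library were read next. Pvr was higher in cells high in the Edn1 set in all 3 libraries. In cells high in the Edn1 set it was at 45.3 CPM untreated, 27.2 CPM at 24 h and 43.1 CPM at 48 h, against 15, 11.1 and 22.7 CPM in all other cells of the same library. The log2 differences were 1.6 (1.30 to 1.88), 1.29 (0.93 to 1.63) and 0.92 (0.63 to 1.20), and without the cell richest in Pvr they were 1.52, 1.05 and 0.86. The set includes Edn1, the vasoconstrictor endothelin, Il1rn, the IL-1 receptor antagonist, and F3, the tissue factor that starts coagulation. Of 14672 genes with enough UMIs, 3.92% were at least 1.5-fold higher in these cells in all 3 libraries. Nectin2 was higher there too by less than that factor at 24 h and 48 h, with log2 differences of 0.69, 0.34 and 0.37, and Cd47 was at 0.28, 0.37 and 0.29. Cells high in the Edn1 set were shallower than their libraries, with medians of 17395, 26850 and 9170 UMIs. They made up 75, 52 and 196 cells. All cells of the depth range around that median had Pvr at 25.6, 21.4 and 28.8 CPM. These ranges were 10000 to 20000 UMIs untreated, 20000 to 40000 at 24 h and 5000 to 10000 at 48 h. The part of depth in the differences of Pvr, Nectin2 and Cd47 was not tested.

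Cd274 was higher in the few cells high in the enteroendocrine list, which marks hormone-producing cells, by a wide margin only without IFN-γ. These 24, 12 and 47 cells had Cd274 at 35.9, 129 and 214 CPM, against 1.17, 73.0 and 121 CPM in other cells. The log2 difference was 4.93 (4.01 to 5.77) without IFN-γ, 0.82 (0.42 to 1.19) after 24 h and 0.82 (0.56 to 1.07) after 48 h. In the untreated library it rested on 15 UMIs in 7 of the 24 cells, 6 of them in 1 cell, and without that cell it was 4.37. Without the richest cell at 24 h, which held 18 of 58 UMIs, it was 0.33 (-0.15 to 0.78), and with cells called on unthinned UMIs it was 0.22. These cells were also shallow, with medians of 11048, 29725 and 7871 UMIs. All cells of 20000 to 40000 UMIs at 24 h had Cd274 at 161 CPM, above this group, and the part of depth in the difference was not tested. For this list 7.05% of genes were at least 1.5-fold higher in all 3 libraries. H2-T23 was at 382 CPM in these cells at 24 h against 88.1 CPM in others, a log2 difference of 2.12 (1.89 to 2.33). At 48 h it was at 131 against 74.7 CPM, a difference of 0.81 (0.48 to 1.13). Untreated it was at 14.4 against 18.5 CPM, a difference of -0.37 (-1.82 to 0.76).

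Stem-list cells had more Cd274 than other cells in both treated libraries. Levels were 2.92 CPM untreated, 167 CPM at 24 h and 219 CPM at 48 h against 1.42, 70.9 and 119 CPM in other cells. The untreated value rested on 4 UMIs and its log2 difference of 1.04 had an interval from -0.88 to 2.46. Without 1 cell, which held 2 of these UMIs, it was 0.13 (-2.94 to 2.04), which ends the 1.5-fold difference in all 3 libraries. The treated differences were 1.23 (1.06 to 1.40) and 0.88 (0.70 to 1.04). The background for this list was wide, as 15.2% of genes were at least 1.5-fold higher in all 3 libraries. Stem-list cells were shallow, with medians of 15352, 19130 and 7687 UMIs. At 24 h all cells of 10000 to 20000 UMIs had Cd274 at 138 CPM. At 48 h all cells of 5000 to 10000 UMIs had it at 155 CPM. The part of depth in the Cd274 differences was not tested. For the other lists no member reached 1.5-fold in all 3 libraries. The shares of genes that did were 0.675% higher and 3.74% lower for S phase, 0.886% and 3.37% for G2/M, 3.24% and 9.77% for the goblet list and 5.42% and 12.8% for the colonocyte list. Genes lower in all 3 libraries made up 4.66% for the stem list, 7.76% for the enteroendocrine list and 2.62% for the Edn1 set, with 0 members among them. In total 3 pairs of a member and a list reached 1.5-fold in the same direction in all 3 libraries, and only the pair of Pvr and the Edn1 set did so under each alternative way of calling the cells.

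**Figure D5:**
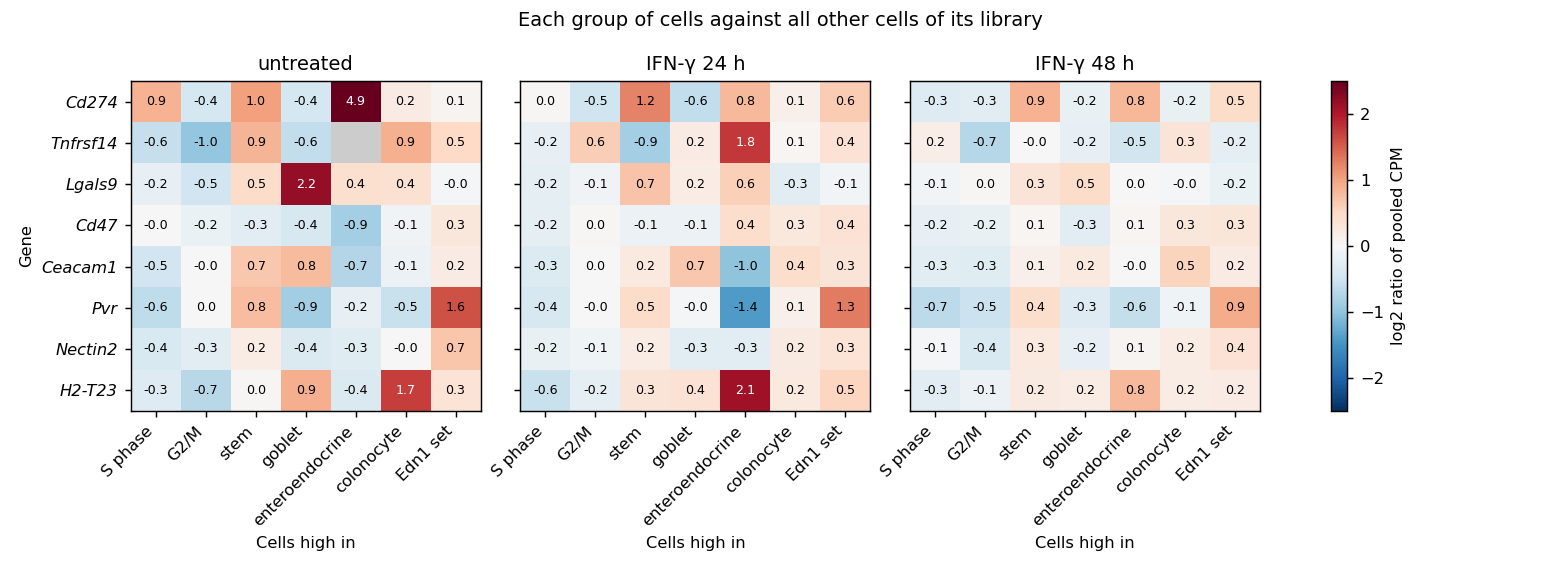
Log2 difference of each ligand gene between the cells high in a list and all other cells of the same library, for the 7 lists and 3 libraries, as colour and number, with grey where the group had no UMI and values beyond the colour scale in its end colour. Pvr in the Edn1 set is at 1.6, 1.29 and 0.92, while Lgals9 in goblet-list cells goes from 2.19 untreated to 0.18 and 0.47 under IFN-γ.

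Some differences between groups of cells were larger without IFN-γ and others larger with it. Lgals9 was at 94.9 CPM in the 29 untreated goblet-list cells against 20.8 CPM in other cells, a log2 difference of 2.19 (1.95 to 2.42). It was detected in 27 of these 29 cells, and without the richest cell the difference was 2.08. Under IFN-γ goblet-list cells had 358 and 659 CPM against 317 and 477 CPM, differences of 0.18 and 0.47. H2-T23 behaved likewise in colonocyte-list cells, the group with markers of absorptive surface cells. It was at 51.4 CPM there against 15.5 CPM in other untreated cells, a difference of 1.73 (1.5 to 1.95), and at 105 against 88.9 CPM and 84.9 against 74.6 CPM in the treated libraries, differences of 0.25 and 0.19. Ceacam1 in goblet-list cells was at 796, 391 and 345 CPM, above other cells by 0.79, 0.67 and 0.24. In colonocyte-list cells Ceacam1 changed sides, from -0.15 untreated to 0.44 and 0.55 under IFN-γ. Cd274 in the Edn1 set was at 0.06 (-1.86 to 1.48, 4 UMIs) untreated and at 0.64 and 0.46 under IFN-γ. Cells of this set were shallow. At 24 h they had Cd274 at 112 CPM, below the 161 CPM of all cells of 20000 to 40000 UMIs. At 48 h they had it at 165 CPM, beside 155 CPM in all cells of 5000 to 10000 UMIs. The part of depth in these Cd274 differences was not tested. Lgals9 in stem-list cells was at 0.46, 0.72 and 0.32. The goblet and colonocyte lists themselves were lower in the treated libraries. All 9 genes of the goblet list and 10 of 12 of the colonocyte list were at least 2-fold lower at both times, so that these groups were cut at fewer UMIs under treatment.

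Related genes were read as lists, and their counts stand beside the shares of all genes given above, 3.46% higher and 26.0% lower at 24 h and 5.26% and 16.6% at 48 h. These lists too were chosen with earlier results of these data known. Nonclassical class I genes, which are relatives of H2-T23, and NKG2D ligands were read together. Of 13 such genes measured, 6 were at least 2-fold higher and 2 lower at 24 h. The counts were the same at 48 h. H2-Q7 was at 5.34, 115 and 298 CPM and H2-Q6 at 0.703, 30.1 and 63.8 CPM, though these are close paralogs and reads may be misplaced between them. H2-T22 was at 9.34, 35.6 and 35.6 CPM. Cd1d1, which presents lipids, was lower by log2 -2.41 and -3.15, and Ulbp1, a ligand of the activating receptor NKG2D, by -1.57 and -1.28.

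The ratios of the relatives of Cd274 were far smaller than its own. Of 8 measured B7 and other co-signalling ligands, 0 were 2-fold higher and 3 lower at 24 h, and 2 were higher and 2 lower at 48 h, so that the lower counts were near the share of all genes. Pdcd1lg2, which encodes the other PD-1 ligand PD-L2, had 19, 4 and 14 UMIs. Vtcn1 (B7-H4) was at 28.8, 4.74 and 7.64 CPM and Cd276 (B7-H3) at 10.5, 14.1 and 22.8 CPM. Among 6 PD-L1 regulators, 2 were 2-fold higher and 0 lower at both times. Irf1 was at 23.5, 331 and 310 CPM. Cmtm6, which protects PD-L1 protein from breakdown, was at 20.6, 20.7 and 16.3 CPM, and Jak2 was at 36.0, 35.6 and 48.5 CPM.

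In the TNF superfamily list, which holds relatives of Tnfrsf14 and its ligand, 2 of 7 measured genes were 2-fold higher and 0 lower at 24 h, and 3 were higher and 1 lower at 48 h. The death ligand Tnfsf10 (TRAIL) was at 4.74, 74.2 and 108 CPM and the death receptor Fas at 3.55, 13.2 and 14.8 CPM. Tnfsf14, which encodes LIGHT, had 0 UMIs. Of the 5 measured galectins other than Lgals9, 0 were 2-fold higher at either time, and 1 was lower at 24 h and 2 at 48 h. Lgals4 was at 2761, 1761 and 1360 CPM and Lgals3 at 626, 437 and 321 CPM, opposite in direction to Lgals9. Their log2 ratios at 24 h, -0.65 and -0.52, lay near the median of -0.46 over all genes. At 48 h they were -1.02 and -0.96, beside a median of -0.18.

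Among 6 measured nectins and CD47-like signals, 1 was 2-fold higher and 2 lower at 24 h, and 1 was higher and 0 lower at 48 h. The higher gene was Nectin4 at 1.51, 3.53 and 4.85 CPM. Nectin1 was at 20.5, 8.24 and 10.6 CPM and Thbs1, a soluble ligand of CD47, at 16.1, 2.66 and 10.3 CPM. Of the 6 genes in the butyrophilin-like list, 3 were 2-fold higher at 24 h and 4 at 48 h, with Btnl2 at 3, 132 and 208 UMIs. Of the 3 Ceacam paralogs, 0 were 2-fold higher at either time, and 1 was lower at 24 h and 2 at 48 h, with Ceacam20 at 8.92, 5.66 and 6.94 CPM. The receptors of the members on lymphocytes had at most 20 UMIs per gene in any library and summed to 0.422, 0.436 and 0.572 CPM.

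The genes with the profiles most like those of the members were read over all groups of cells. Over 24 profiles, the 8 groups of cells in 3 libraries, and among 9790 genes, Cd274 was closely matched by Gm12216 (Pearson r = 0.98) and Nlrc5 (0.97). Lgals9 was most like Wars (0.97), AW112010 (0.97) and Gm12185 (0.97), and H2-T23 most like H2-D1 (0.96), Tgtp2 (0.94) and H2-T22 (0.94). Cd47 was closest to Ifit2 (0.91), Parp3 (0.88) and Ly6c1 (0.88), and Tnfrsf14 to Cd47 (0.84), H2-T23 (0.83) and Gm13203 (0.82). Ceacam1 was closest to Tmprss2 (0.88), Dsc2 (0.88) and Inava (0.87). Pvr was closest to Osbpl3 (0.92), Cdh1 (0.88) and Zfp809 (0.87), and Nectin2 to Ncoa3 (0.88), Irak2 (0.85) and Pvr (0.83). These coefficients, on log2(CPM + 1) levels, are descriptions, since profiles of 1 library share their treatment and preparation and groups differ in depth.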

How the data were processed

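Colon organoid cells were sequenced with 3′ v3 chemistry (10x Genomics), 1 library per condition. The authors mapped reads to mm10 with Cell Ranger 6.0.1 and deposited matrices of UMI counts, whole numbers without normalization. The annotation release is not given in the sources used here. Barcodes below 2000 UMIs were still present (minima 1390, 851 and 1624 UMIs).

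Thresholds for cells followed the study, with minima of 5000 UMIs and 400 genes and a maximum of 15% mitochondrial UMIs. Doublets were not removed. Levels are pooled counts of all kept cells, scaled to their total (CPM). Ratios have exact conditional binomial intervals, CPM exact Poisson intervals and shares Clopper-Pearson intervals at 95%. A gene needed 10 UMIs over both libraries, and 2-fold was the threshold of size. No test across samples was possible. No cell class here is known to lack these genes, so the background is given as the CPM of barcodes below 2000 UMIs.

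The members and lists were chosen with earlier results of these data known. Named are the 8 members, list genes past 2-fold at both times or of at least 20 CPM in a library, and the 3 genes most like each member over groups of cells. A few other list genes below these limits (Pdcd1lg2, Tnfsf14, Thbs1 and Ceacam20) are named for their known role and were chosen after their values were seen. The values of some genes that the rule names are not reported here. Positions come from GENCODE vM21 on GRCm38 and start regions from RefSeq. Alternatives were other cell filters, equal depth ranges, TMM and median-of-ratios factors, averaging over cells and a minimum of 50 UMIs. Further ones were subtraction of 0.1 of the background CPM, other thinning and other calls of cell groups. Software was Python 3.11.15, numpy 2.4.6, scipy 1.17.1, pandas 2.3.3, matplotlib 3.10.9, R 4.3.3 and edgeR 4.0.16 (factors only). The ratio code was tested on simulated data.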

Additional observations from a re-analysis of the deposited data

Results flagged for a closer look

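Pvr and Nectin2 had ratios to the untreated library of opposite sign at 24 h and 48 h. Pvr was at log2 -0.50 and 0.53, a difference of 1.02, and Nectin2 was at -0.09 and 0.39, a difference of 0.48. With 1 library per time the difference was not tested. In cells of 10000 to 40000 UMIs both genes were below the untreated library at both times, with Pvr at -0.23 and -0.25 and Nectin2 at -0.07 and -0.33. The median over all genes in these cells was -0.14 and -0.63. Cells of 5000 to 10000 UMIs had both genes above untreated at both times. There Pvr was at 16.1, 39.4 and 28.8 CPM and Nectin2 at 101, 156 and 145 CPM. Cells of 40000 or more UMIs had Pvr at 14.5, 10.7 and 23.2 CPM and Nectin2 at 77.6, 78.7 and 103 CPM.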

How the results depend on the processing

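No paired analysis was possible because each condition has 1 library, and for the same reason no replicate could be left out. The depth alternative took cells of 10000 to 40000 UMIs, and the background alternative subtracted only 0.1 of the background CPM. The latter therefore cannot show how the ratios would stand with a larger part of free RNA. In the separate depth ranges Tnfrsf14 was less than 2-fold higher in 2 cases. It was at 1.90 against 1.06 CPM at 48 h in cells of 20000 to 40000 UMIs. In cells of 5000 to 10000 UMIs it was at 1.41 against 0.894 CPM at 24 h, from 1 UMI each. Under all alternatives of cell filter, depth, scaling, averaging, minimum count and background, Cd274, Lgals9, H2-T23 and Tnfrsf14 were at least 2-fold higher at both times. Over these alternatives, which leave out the separate depth ranges, their log2 ratios at 24 h ranged from 5.4 to 6.11, 3.73 to 4.22, 2.26 to 2.74 and 1.24 to 1.73. At 48 h they ranged from 5.0 to 6.57, 4.19 to 4.54, 1.40 to 2.21 and 1.33 to 1.75. The count of members past 2-fold went from 4 to 5 at 24 h with TMM and median-of-ratios factors, through Cd47, and at 48 h in cells of 10000 to 40000 UMIs, through Ceacam1. In cells of that depth the median ratio of the members at 48 h to 24 h changed sign, from 0.36 to -0.18, with Cd274 at -0.40, Ceacam1 at -0.47, Nectin2 at -0.25 and Pvr at -0.0250, and against untreated at 48 h Nectin2 was at -0.33 and Pvr at -0.25. TMM and median-of-ratios factors turned Ceacam1 at 48 h to 24 h to -0.0264 and -0.0470, and Nectin2 at 24 h to 0.36 and 0.37. The cause of these changes was not tested. The 3 pairs of a member and a list became 1 when cells were called on unthinned UMIs and 2 when 20% and 6% of cells were called. Averaging over cells gave 3, with Pvr in S phase cells in place of Cd274 in stem-list cells. The pooled log2 differences of Pvr in S phase cells were below 0, at -0.63, -0.41 and -0.66 in the untreated, 24 h and 48 h libraries. The number of members whose share interval lay above the untreated one was 4 at 24 h under every thinning, and 6 or 5 at 48 h. Members below it numbered 1 at 24 h, or 2 with thinning to 10000 UMIs, and 1 at 48 h. The same count was not made over all genes, so it has no background beside it. The 4 ranges of depth per cell and the removal of the richest cell were chosen after seeing the data.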

Other observations

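The members were also counted per cell. After thinning to 5000 UMIs, an untreated cell held UMIs of a median of 2 of the 8 ligand genes, and a treated cell of 3 at both times. At least 4 of the 8 were found in 68 cells without IFN-γ (6.43%), 347 after 24 h (37.8%) and 1452 after 48 h (49.5%). None of the 8 was found in 47 cells (4.44%), 14 cells (1.53%) and 16 cells (0.545%), in the same order. Any UMI was counted, also of Cd47 and H2-T23, which background barcodes held at about the level of the cells. The parts of free RNA and of depth before thinning in these counts were not tested. In untreated organoids 73 UMIs of Cd274 were found in 51 of 1058 cells before thinning, and 2 of these cells held 5 or more.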
